A study of Mus musculus with 6 samples.

Results

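Ptges3l, its paralog Ptges3 and its chromosomal neighbour Aarsd1 were followed in mouse megakaryocyte progenitors with and without serum response factor (SRF). They were taken as every probe that the platform annotation names for these 3 genes, which gave 3 of the 15967 genes named on the arrays and 5 of 24611 probes. Ptges3l and Ptges3 had 2 probes each and Aarsd1 had 1, and 4 of the 5 passed the detection filter used for testing. Ptges3l was chosen by its knockout minus wild-type difference in signal in these same arrays, so its levels and differences are given as a description without a p-value. Ptges3 and Aarsd1 were picked for their relation to Ptges3l, not for their values, and were tested.

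The study compared 3 arrays of SRF knockout progenitors (SRF-/-) with 3 arrays of SRF wild-type progenitors (SRF+/+), all from C57BL/6 bone marrow of a Pf4-Cre line. Pf4 encodes a platelet granule chemokine, and Cre under its promoter is active mainly in the megakaryocyte lineage. CD41+ c-kit+ cells were sorted after a night in stem cell factor and thrombopoietin and then grown in thrombopoietin for 3 days. The labels give no age, do not say which Cre or floxed alleles the wild-type mice carried, and number the replicates without tying each to a mouse, so a p-value here covers only the spread among the samples, which may be technical. In these bulk samples, fewer cells of a type and less RNA per cell cannot be told apart.

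SRF is a DNA-binding protein that switches on genes of the actin cytoskeleton and of muscle through a motif called the CArG box. Ptges3 encodes p23, a small cochaperone that stabilises the HSP90 chaperone on its client proteins and was also described as the cytosolic prostaglandin E synthase. Ptges3l encodes a protein related to p23. Aarsd1 encodes a protein related to the editing domain of alanyl-tRNA synthetase, which removes amino acids wrongly attached to tRNA. In mouse muscle cells a longer form of Aarsd1 with a p23-like part has been described as an HSP90 cochaperone, and in human the neighbouring genes are known to share readthrough transcripts. Probe positions on the transcripts were not available here, so whether any probe reads such longer or shared transcripts was not checked.

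Ptges3l lies on chromosome 11 in the mouse gene table of assembly GRCm38.p6, with Aarsd1 as the next protein-coding gene on one side and Rundc1, which encodes a RUN domain protein, on the other. Ptges3 lies on chromosome 10. The annotated interval of Rundc1 overlaps that of Ptges3l, and the interval of Aarsd1 does not. The promoter windows on either side of Ptges3l are shown because the deleted factor binds promoters, and that of Srf is shown as a promoter known to carry the motif. Each line holds the 250 bases before the transcript start, 5′ to 3′ on the gene's own strand, from RefSeq on GRCm38.p6. Capitals mark CArG boxes. The Rundc1 stretch is chr11:101424835-101425084 on the plus strand and lies wholly inside the Ptges3l interval. The Aarsd1 stretch is chr11:101417434-101417683 on the minus strand. The Srf stretch is chr17:46556163-46556412 on the minus strand.
Rundc1: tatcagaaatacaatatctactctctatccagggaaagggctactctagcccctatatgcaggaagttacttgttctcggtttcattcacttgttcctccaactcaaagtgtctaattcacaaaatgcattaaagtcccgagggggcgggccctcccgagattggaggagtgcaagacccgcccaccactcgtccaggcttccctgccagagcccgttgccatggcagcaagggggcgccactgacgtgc
Aarsd1: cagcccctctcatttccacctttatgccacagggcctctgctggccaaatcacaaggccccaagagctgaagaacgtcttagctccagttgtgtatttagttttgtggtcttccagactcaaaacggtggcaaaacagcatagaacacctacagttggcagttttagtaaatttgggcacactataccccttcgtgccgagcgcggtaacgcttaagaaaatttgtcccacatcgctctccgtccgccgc
Srf: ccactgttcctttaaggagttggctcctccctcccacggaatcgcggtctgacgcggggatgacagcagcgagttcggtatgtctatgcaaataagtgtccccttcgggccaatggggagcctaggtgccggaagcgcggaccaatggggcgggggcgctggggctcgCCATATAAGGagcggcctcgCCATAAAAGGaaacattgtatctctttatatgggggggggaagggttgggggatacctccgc

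No CArG box was found in the promoter windows of Rundc1, Aarsd1 or Ptges3, searched from 250 bases before to 50 bases after the start. The Srf window held 2, which began 82 and 62 bases before the start. Of all 32851 promoter windows of 300 bases in the table, 1.63% held a CArG box. The motif is its own reverse complement, so each search covered both strands. Only exact matches counted, with CC and GG around a stretch of A or T bases, as in CCATATAAGG. A missing match says only that the motif in this form is not in that window. No promoter window was available for Ptges3l, so its own promoter was not searched.

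Srf itself checked the labels. Its brighter probe (ILMN_2769688) stood at log2 7.35, 7.56 and 7.20 on the knockout arrays, against 12.31, 11.89 and 11.98 on the wild-type arrays. The arrays detected 9801 to 10364 probes each, counting a probe as detected when its deposited detection p against negative control beads was under 0.05. Of 9403 probes detected on all arrays of at least 1 group, 15 passed limma's test at an adjusted p under 0.05, or 0.160% of those tested. Of these, 2 were higher in the knockout (0.0213% of those tested) and 13 lower (0.138%). The 13 include the brighter Srf probe and both Ptges3l probes. Ptges3l was chosen on these arrays, so its place among them is no support for it. All 10 megakaryocyte markers with a probe were detected on every array. By group mean 8 of the 10 were higher in the knockout and 2 lower, with a median difference of 0.29, and 0 passed limma's test in either direction (smallest adjusted p = 0.25). Groups did not overlap for 4, a count named after its values were seen. Pf4, Itga2b and Gp1bb were higher in the knockout and Ppbp lower. Over all tested probes 18.9% did not overlap, with 9.77% higher and 9.08% lower in the knockout. The summed linear signal of the 10 markers, to which the brightest genes contribute most, was 93900 to 100000 in the knockout and 92700 to 113000 in the wild-type.

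Ptges3l was above background in wild-type progenitors and not in SRF knockout progenitors, by either of its probes. On the brighter probe (ILMN_2596569) the raw bead intensity was 157 ± 10.6, 215 ± 12.3 and 183 ± 9.8 on knockout arrays 1 to 3, against 415 ± 18.2, 395 ± 18.1 and 305 ± 16.1 on wild-type arrays 1 to 3 (± standard error over 40 to 58 beads). The lowest wild-type array therefore lay above the highest knockout array before any normalization. The knockout values sat at 0.842, 0.96 and 0.814 times the median raw intensity of their own arrays. The wild-type values were 2.06, 2.17 and 1.75 times that median. Detection p was 0.56, 0.22 and 0.63 in the knockout, against 0, 0 and 0.0036 in the wild-type.

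After background correction and quantile normalization the same probe lay at log2 5.14, 5.47 and 5.09 in the knockout, against 7.96, 8.02 and 7.73 in the wild-type. The mean was 5.23 ± 0.20 in the knockout and 7.91 ± 0.15 in the wild-type (SD, n = 3 each), a knockout minus wild-type difference of -2.67. Because the knockout arrays give only an upper bound, the fold is stated against the lowest detected signal on each of those arrays. On this background-corrected scale Ptges3l was at least 3.66-fold lower in the knockout. The knockout and wild-type arrays did not overlap, which is also what the choice of the gene rests on.

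The other Ptges3l probe (ILMN_2662036) gave the same order of groups with more spread. Raw intensity was 185 ± 16.4, 204 ± 15.7 and 189 ± 10.2 on the knockout arrays, against 403 ± 23.9, 312 ± 18.5 and 239 ± 14.6 in the wild-type (± bead standard error, 27 to 42 beads). Here wild-type array 3 stood only a little above knockout array 2 in raw units, although the median intensity of the knockout array was the higher (224 against 174). As a multiple of the array median, the knockout lay at 0.993, 0.909 and 0.839 and the wild-type at 2, 1.72 and 1.37. On the log2 scale the arrays lay at 5.57, 5.32 and 5.15 in the knockout, against 7.90, 7.46 and 6.91 in the wild-type. This probe was detected on 0 of 3 knockout and 3 of 3 wild-type arrays, and on the same scale was at least 2.62-fold lower in the knockout. Wild-type array 3 was the lowest wild-type array on both probes. Across the 6 arrays the log2 values of the probes had a Pearson correlation of 0.966, in which all points share the gap between the groups.

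The size of the Ptges3l difference depended on how background was handled, and its direction was the same under all 17 alternatives tried. Those alternatives used the arrays on which the gene was chosen, so the shared direction is not independent support. In the authors' processed values the brighter probe averaged 8.11 ± 0.06 in the knockout and 8.85 ± 0.06 in the wild-type (SD, n = 3 each), a difference of -0.74 on a scale whose lowest value is 7.80. Without background correction the difference was -1.21.

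**Figure D1:**
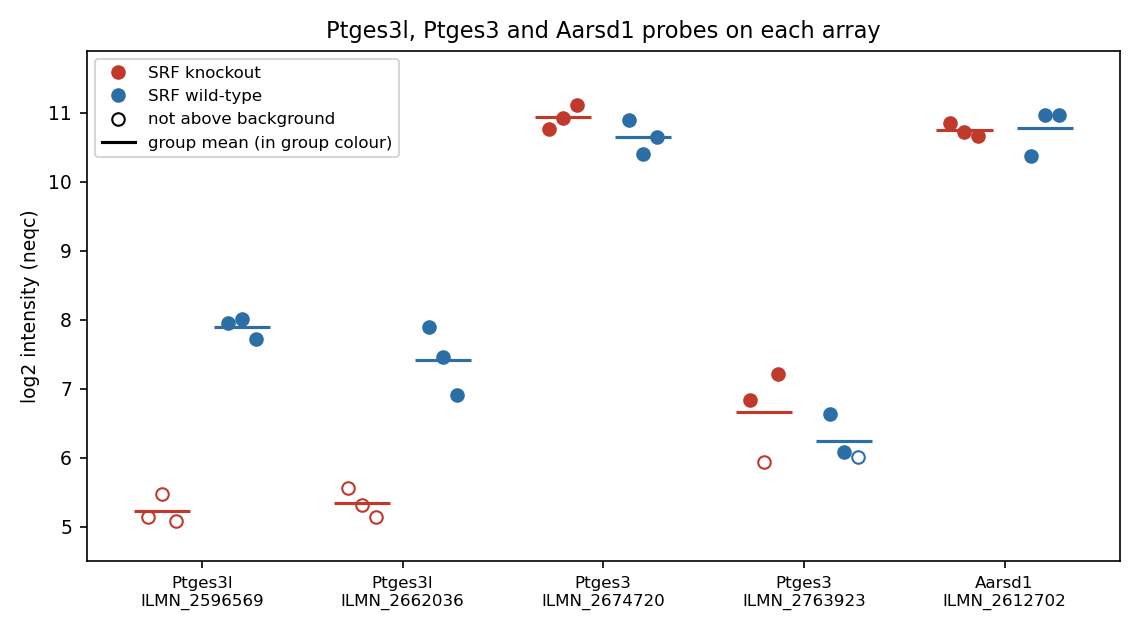
Log2 intensity after neqc (vertical axis) of the 5 probes for Ptges3l, Ptges3 and Aarsd1 on each array, with SRF knockout left of SRF wild-type for each probe; each point is 1 array, bars are group means, and open points were not above background. Both Ptges3l probes are open in all 3 knockout arrays and filled in all 3 wild-type arrays, whereas the groups overlap for both Ptges3 probes and for Aarsd1.

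Ptges3, the paralog, was detected on all 6 arrays by its brighter probe (ILMN_2674720), and its groups overlapped. Raw intensity was 1570, 2530 and 2830 on the knockout arrays, against 2110, 1460 and 1390 on the wild-type arrays, so wild-type array 1 lay above knockout array 1. The log2 values were 10.77, 10.92 and 11.11 in the knockout, against 10.90, 10.41 and 10.65 in the wild-type. Knockout array 3 was the highest and wild-type array 2 the lowest. The means of 10.93 ± 0.17 in the knockout and 10.65 ± 0.25 in the wild-type (SD, n = 3 each) differed by 0.28 (SE 0.17, 95% interval -0.12 to 0.69, limma adjusted p = 0.467). A fall of Ptges3 to the extent seen for Ptges3l lies outside that interval, and a small rise does not. With arrays weighted by their estimated quality the same difference was 0.51 (limma adjusted p = 0.032), a fit in which wild-type array 2 alone had a weight of 5.91 and the others 0.32 to 1.48.

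The second Ptges3 probe (ILMN_2763923) was near background and was not tested. It lay at log2 6.84, 5.94 and 7.22 in the knockout, against 6.63, 6.09 and 6.02 in the wild-type, and was detected on 2 of 3 arrays in each group. Its groups overlapped as well. On both Ptges3 probes the highest array was knockout array 3.

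Aarsd1, the neighbour, was detected on all 6 arrays (ILMN_2612702), and its group means nearly coincided. Raw intensity was 1660, 2250 and 2170 in the knockout, against 1520, 2130 and 1680 in the wild-type. The log2 values were 10.85, 10.72 and 10.67 in the knockout, against 10.38, 10.97 and 10.97 in the wild-type, so all knockout arrays lay inside the wild-type range. Means of 10.75 ± 0.09 in the knockout and 10.77 ± 0.34 in the wild-type (SD, n = 3 each) differed by -0.02 (SE 0.19, 95% interval -0.47 to 0.42, limma adjusted p = 0.967). The sign of so small a difference was not stable, since it was 0.08 without wild-type replicate 2 and -0.22 without wild-type replicate 1.

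On its brighter probe Ptges3 was lower, and Aarsd1 higher, on the arrays with high signal of the granulocyte transcript Mpo. Mpo, the myeloperoxidase of granulocytes, lay at log2 13.07, 8.13 and 8.98 in the knockout, against 7.64, 14.74 and 14.93 in the wild-type. The 3 arrays with high Mpo had the 3 lowest values of the brighter Ptges3 probe (10.77 in the knockout, 10.41 and 10.65 in the wild-type). They also had the 3 highest Aarsd1 values (10.85 in the knockout, 10.97 and 10.97 in the wild-type). The dim second Ptges3 probe did not split this way, at 6.84, 6.09 and 6.02 on those arrays and 5.94, 7.22 and 6.63 on the others. This split was named after its values were seen, and the share of all tested probes that split likewise was not counted. Between knockout and wild-type, 18.9% of all tested probes did not overlap. Over the 14 granulocyte markers with a probe, the summed linear signal ranged from 2050 to 30100 in the knockout and from 2410 to 58900 in the wild-type, with 9 to 12 markers detected on the knockout and 10 to 11 on the wild-type arrays. The mean log2 of these 14 markers was 9.37 on knockout array 1 and 9.09 and 9.29 on wild-type arrays 2 and 3. On the other arrays it was 6.71 to 7.2. Not all members followed Mpo: in the wild-type, Camp averaged 7.86 ± 0.17 and Ngp 6.42 ± 0.08. Mast cell and basophil markers, 16 with a probe, summed to 8420 to 9460 in the knockout and 8890 to 25100 in the wild-type. The sum was high on wild-type arrays 2 and 3 and not on knockout array 1 (8420), which was high in Mpo. Gata2 and Csf2rb2, bright in both groups, contributed most to the knockout sums (log2 means 12.49 and 11.22). Of the 16, 4 to 5 were detected on the knockout arrays and 3, 9 and 9 on wild-type arrays 1 to 3. Cpa3 lay at 6.62, 12.64 and 12.88 on those wild-type arrays. By their brightest probes Cma1, Mcpt4, Tpsb2, Tpsab1, Mcpt1, Mcpt2 and Il4 were not above background on any array. The part of these cells in the Ptges3 and Aarsd1 values was not tested. Without the 3 arrays rich in Mpo, which leaves knockout arrays 2 and 3 and wild-type array 1, the knockout minus wild-type difference was 0.12 for Ptges3 and 0.32 for Aarsd1 (limma adjusted p = 1 for Ptges3 and 0.91 for Aarsd1). Without wild-type arrays 2 and 3 alone, the difference was 0.04 for Ptges3 and 0.37 for Aarsd1 (limma adjusted p = 1 for each). The single wild-type array is in both fits assumed to vary like the knockout.

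**Figure D2:**
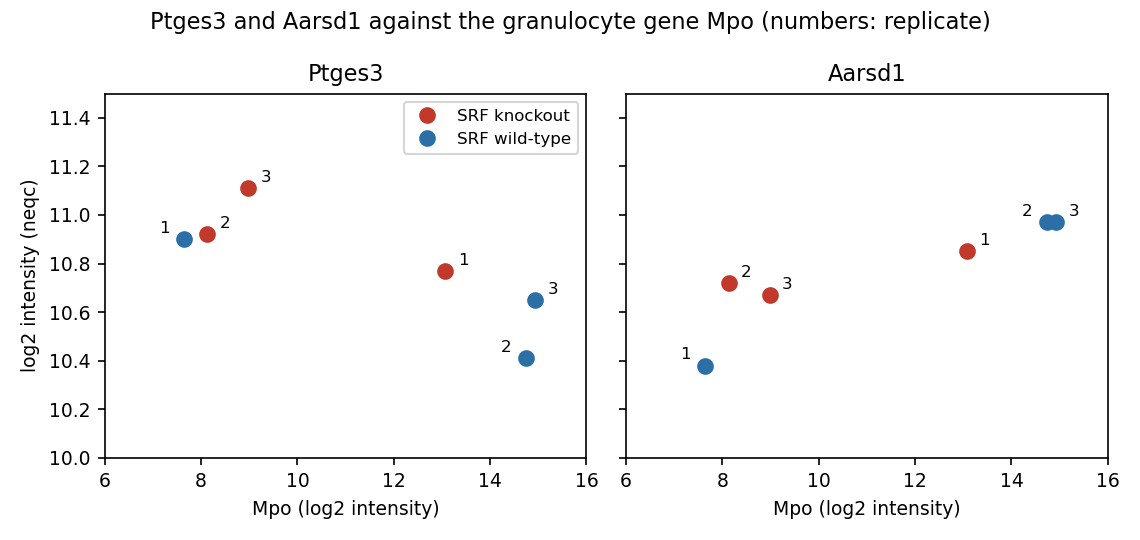
Log2 intensity of Ptges3 (left, ILMN_2674720) and Aarsd1 (right, ILMN_2612702) on the vertical axis against log2 intensity of Mpo on the horizontal axis, 1 point per array with its replicate number, SRF knockout in red and SRF wild-type in blue. Knockout array 1 and wild-type arrays 2 and 3, at Mpo 13.07, 14.74 and 14.93, are the lowest for Ptges3 and the highest for Aarsd1.

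In the wild-type, Ptges3l could be set beside the same marker on both probes. The brighter probe lay at 7.96 on wild-type array 1, which was low in Mpo, and at 8.02 and 7.73 on wild-type arrays 2 and 3, which were high in Mpo. The second probe lay at 7.90 on wild-type array 1 and at 7.46 and 6.91 on wild-type arrays 2 and 3, lower on both arrays high in Mpo. In the knockout both probes were not above background on any array, so their values there have no order to set against Mpo. The part of these cells in the wild-type Ptges3l values was not tested. Without the 3 arrays rich in Mpo the Ptges3l difference was -2.68 on the brighter probe. Because Ptges3l is known as a muscle-enriched gene, muscle markers were examined too. Of 13 with a probe, none was detected on any knockout array by its brightest probe, and 1, 0 and 1 were detected on wild-type arrays 1 to 3. Those were Myog, a muscle transcription factor, at a detection p of 0.045 and a troponin gene, Tnnc2. The creatine kinase gene Ckm, desmin (Des) and smooth muscle myosin (Myh11) were not above background on any array. The summed muscle signal was 498 to 544 in the knockout and 510 to 582 in the wild-type, ranges that overlap. Nearly all of the summed values were not above background, so the sums do not compare muscle signal between the groups.

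No tested gene beside Ptges3l passed the test. The 5 nearest protein-coding genes on each side, Aarsd1 among them, included 9 with a named probe, of which 6 were tested, and 0 of 6 passed in either direction (0.160% of all tested probes passed, 15 by limma in all, and 1290 had an unadjusted p under 0.05). Their differences ran from -0.17 to 0.47 with a median of 0.03, beside a median of 0.01 over all tested probes. Rundc1, whose interval overlaps Ptges3l, lay at log2 7.39, 7.75 and 7.17 in the knockout, against 7.55, 7.34 and 7.22 in the wild-type, with the groups overlapping (difference 0.07, SE 0.19, limma adjusted p = 0.89). Beyond it, Ifi35, an interferon-induced gene, differed by -0.17 (SE 0.23) and Vat1, a membrane protein gene, by -0.01 (SE 0.18). On the Aarsd1 side, Psme3, a proteasome activator subunit, differed by 0.47 (SE 0.22, limma adjusted p = 0.39) and the amine oxidase gene Aoc2 by 0.18 (SE 0.24). Aoc3, G6pc and Rnd2 were too dim to test, and Rpl27 had no probe under its name in the annotation used here.

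**Figure D3:**
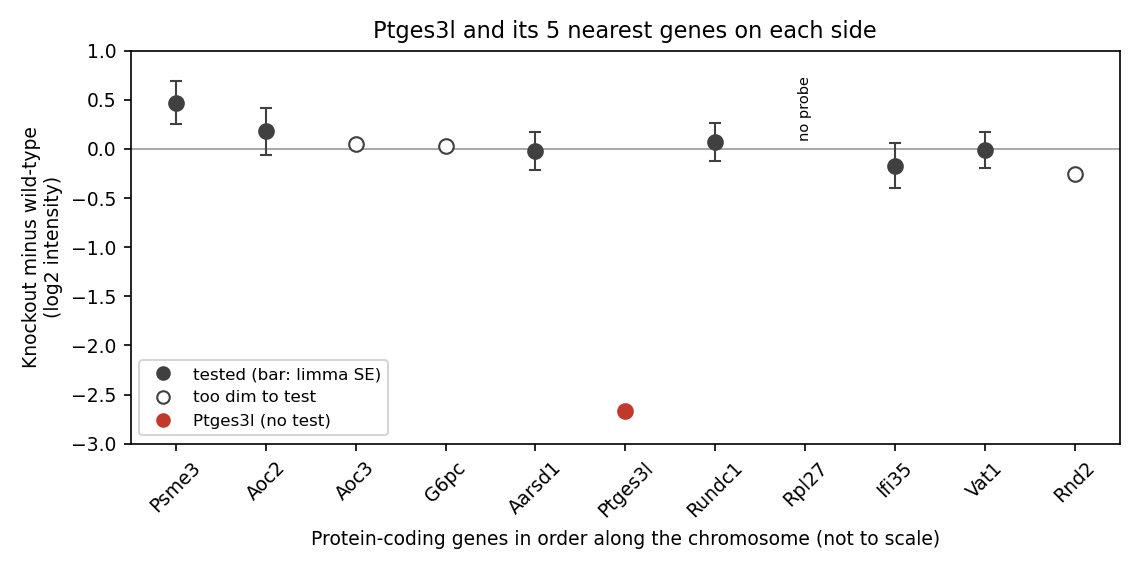
Knockout minus wild-type difference in log2 intensity (vertical axis) for Ptges3l and its 5 nearest protein-coding genes on each side, in chromosomal order and not to scale; bars are limma standard errors, open points were too dim to test, and Ptges3l is shown without a test. Ptges3l lies at -2.67 and the tested flanking genes between -0.17 and 0.47.

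Partners of p23 in the HSP90 system showed no change that passed. Of 31 listed genes, Ptges3 included, 26 were tested, and 0 rose and 0 fell. Only 0.160% of all tested probes passed, so a count of 0 in a list this short says little. The median difference was -0.03, beside 0.01 over all tested probes. Groups did not overlap for 4 of the 26, all lower in the knockout, where 18.9% of all tested probes had no overlap and 9.08% were lower without overlap. Sugt1, an HSP90 adaptor, averaged 7.28 ± 0.36 in the knockout and 7.91 ± 0.25 in the wild-type (SD, n = 3 each, difference -0.63, SE 0.22, limma adjusted p = 0.33). Fkbp8, a membrane-bound immunophilin, differed by 0.45 (SE 0.20) and Cacybp, which encodes the calcyclin-binding protein, by -0.35 (SE 0.16). The chaperone gene Hsp90aa1 averaged 8.04 ± 0.56 in the knockout and 7.63 ± 0.40 in the wild-type (difference 0.41, SE 0.31). A second Hsp90aa1 probe, too dim to test, differed by -0.16. The kinase adaptor Cdc37 (-0.09), the scaffold Stip1 (0.08), which links HSP90 to HSP70, and the activator of the HSP90 ATPase, Ahsa1 (0.11), each had a standard error of 0.13 to 0.19. Hsp90ab1 had no named probe here.

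The enzymes around prostaglandin E2 likewise gave no call. Of 20 listed genes, Ptges3 again included, 10 were tested, and 0 rose and 0 fell, where 0.160% of all tested probes passed. The median difference was 0.21. The transporter gene Abcc4 was the only tested member whose groups did not overlap, at 11.32 ± 0.08 in the knockout and 11.05 ± 0.07 in the wild-type (SD, n = 3 each, difference 0.28, SE 0.13, limma adjusted p = 0.39), where 9.77% of all tested probes were higher without overlap. Of the other prostaglandin E synthases, the membrane-associated Ptges2 averaged 7.75 ± 0.46 in the knockout and 8.22 ± 0.27 in the wild-type (difference -0.47, SE 0.25, limma adjusted p = 0.42), and the inducible Ptges was not above background on any array. Ptgs2, an inducible cyclooxygenase gene, was too dim to test, and Ptgs1 had no named probe. Ptgr1, which reduces prostaglandin metabolites, differed by 0.44 (SE 0.24). Tbxas1, the platelet thromboxane synthase, differed by 0.05 (SE 0.16), and by 0.28 on its second probe.

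The aminoacyl-tRNA synthetases and tRNA editing genes, the functional relatives of Aarsd1, gave the same count. Of 29 listed genes, Aarsd1 included, 18 were tested, and 0 rose and 0 fell, where 0.160% of all tested probes passed. The median difference was -0.03. Groups did not overlap for 4 of the 18, all lower in the knockout, beside 9.08% of all tested probes lower without overlap and 18.9% without overlap in either direction. Vars, for valine, averaged 11.23 ± 0.15 in the knockout and 11.69 ± 0.23 in the wild-type (difference -0.46, SE 0.17, limma adjusted p = 0.33), but a second Vars probe differed by 0.31. Fars2, the mitochondrial phenylalanine enzyme, differed by -0.34 (SE 0.14), and Tars, for threonine, by -0.30 on both of its probes. Aars, the alanine enzyme whose errors such editing proteins correct, averaged 12.99 ± 0.20 in the knockout and 13.07 ± 0.09 in the wild-type (difference -0.08, SE 0.15).

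**Figure D4:**
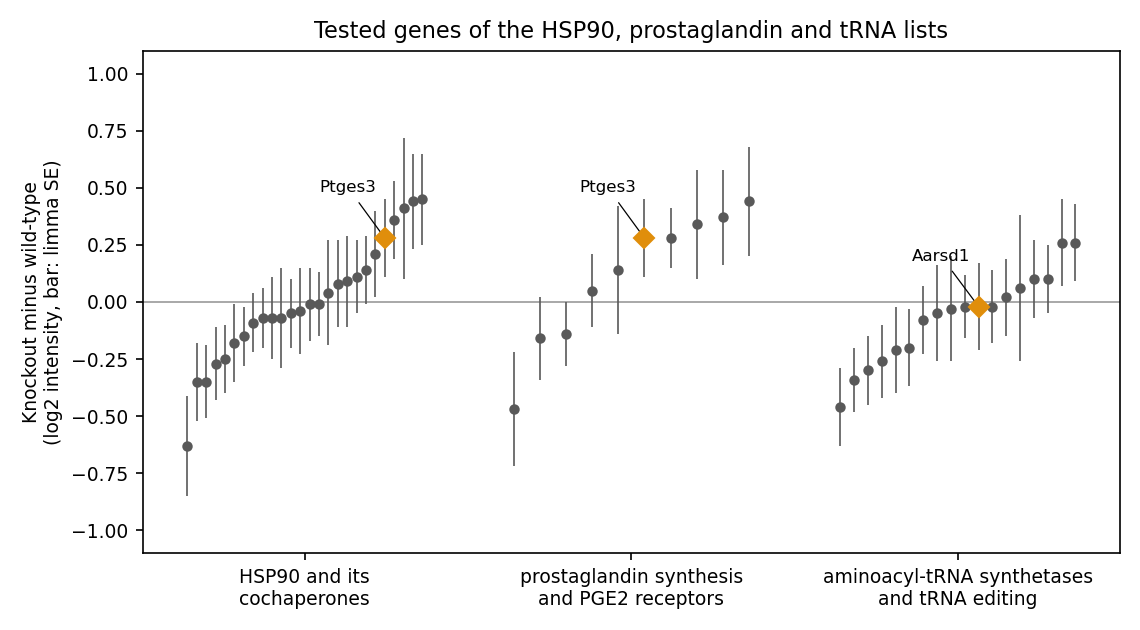
Knockout minus wild-type difference in log2 intensity with limma standard errors (vertical axis) for the tested genes of 3 lists, sorted within each list along the horizontal axis; diamonds mark Ptges3 at 0.28 and Aarsd1 at -0.02. All tested genes lie between -0.63 and 0.45 and none passed the test.

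Among 6868 other tested genes, the 5 whose log2 levels over the 6 arrays were most like the brighter Ptges3l probe were Srf (Pearson r = 0.996), Adat2 (0.988), Hint1 (0.988), Flna (0.988) and Coro1a (0.985). The 6 points share the gap between the groups, and the measure takes no account of the size of a difference. Srf differed by -4.69, Coro1a, an actin-binding coronin, by -2.20 and Flna, an actin cross-linker, by -1.57. Adat2, a subunit of a tRNA deaminase, and Hint1, a nucleotide hydrolase, differed by only -0.24 and -0.16. Ptges3 and Aarsd1 had correlations with Ptges3l of -0.645 and 0.034 over the same arrays.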

How the data were processed

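The deposited non-normalized table held, per the file headers, 4 columns for each array: linear intensity, bead standard error, bead count and detection p-value. The authors' processed values behave as log2 intensities, with a median of 8.22 and the same set of values on every array; how they were made is not given in the sources used here. BeadStudio 3.2 and lumi appear among the submitters' processing notes, which assign them no step.

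With R 4.3.3 and limma 3.58.1, intensities were processed by neqc (normexp with control levels inferred from detection p, offset 16, quantile normalization, log2). For the dim Ptges3l this gave a larger difference (-2.67) than normexp with an offset of 50 (-1.7), no background correction (-1.21) or the authors' processed values (-0.74). Probes detected on all 3 arrays of a group entered lmFit and eBayes, two-sided, with Benjamini-Hochberg adjustment over all 9403. The step was tested on simulated data. A gene with several probes was represented by its brightest tested probe. Symbols came from the platform annotation, with 20967 of 20983 matched to the GRCm38.p6 gene table.

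Named genes were Srf, the members, 5 flanking genes on each side, 3 genes of smallest p per pathway list, 11 fixed by role and the 5 most like Ptges3l. The members, lists and alternatives were chosen with earlier results of these data known. Erythroid markers were listed too: 3 of 8 with a probe were tested and 0 passed, where 0.160% of all tested probes passed. The number of arrays limits the precision.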

Additional observations from a re-analysis of the deposited data

How the results depend on the processing

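The Ptges3l difference stayed negative under all 17 alternatives, which reuse the arrays that the gene was chosen on and so give it no independent support. Leaving out the filter, a detection p under 0.01 and the replicate block cannot change it and left it at -2.67. Its size moved with the background step: -1.70 at a normexp offset of 50, -1.21 with background left in, and -0.74 in the authors' processed values. It was -2.07 by the dimmer probe and -2.60 to -2.79 with single arrays left out. Ptges3 missed the threshold under 16 of 17 alternatives (adjusted p 0.18 to 0.82 with single arrays left out, differences 0.16 to 0.41) and passed with array weights (0.51, adjusted p = 0.032). Aarsd1 passed under none of 16, and its sign varied, from -0.22 to 0.08 with single arrays left out. Without wild-type arrays 2 and 3, Ptges3 differed by 0.04, its lowest value under any alternative, and Aarsd1 by 0.37; without the 3 arrays high in Mpo, Ptges3 differed by 0.12 and Aarsd1 by 0.32. These last 2 settings were chosen after seeing the data. The number of probes passing, 15, became 9 with no filter, 1955 with array weights, and 7 to 639 with single arrays left out; leaving out wild-type replicate 1 gave the 639, leaving out knockout replicate 1 gave 8, and leaving out any one of knockout replicates 2 and 3 and wild-type replicate 2 gave 7. With array weights, 4 of 26 HSP90, 2 of 10 prostaglandin, 2 of 18 tRNA and 1 of 6 flanking genes passed, beside 1955 of all 9403 tested probes. None of these list shares exceeded the share over all tested probes. Under every other alternative 0 passed in each list. The causes were not tested. Same-numbered arrays did not deviate together (correlations -0.27, -0.13 and -0.09). With 3 arrays per group these values cannot settle whether the numbers pair the samples. With the replicate block 6 probes passed and the Ptges3l, Ptges3 and Aarsd1 differences were -2.67, 0.28 and -0.02. Dim signal limits Ptges3l and the second Ptges3 probe.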
